A study of Mus musculus with 2 samples.

Results

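The granzyme genes Gzma, Gzmb, Gzmc, Gzmk and Gzmm, the perforin gene Prf1 and the granule protein genes Nkg7, Srgn and Ctsw were followed through leukocytes of the mouse RPE and choroid. These 9 genes, of 32285 in the files, were listed by name, by what they encode, and the list was drawn up with earlier results of these libraries known. The series holds 2 single-cell RNA libraries, 1 from IL-17RA CKO mice (called knockout here) and 1 from IL-17ra fl mice (called flox). Mice of both genotypes had received NaIO3 (sodium iodate, an oxidant that injures the retinal pigment epithelium) at 20 mg/kg into the peritoneum. Live CD45+ cells were sorted from the digested tissue and run on the 10x Genomics 3′ platform. The labels name no driver of the Cre, no deleted exons, no age and no number of pooled mice. With 1 library per genotype there is no replicate check and no test: an interval given beside a value is a 95% interval that covers counting error only, and a difference of library, animal or handling cannot be told apart from one of genotype.

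Cytotoxic lymphocytes store granzymes and perforin in secretory granules that they release at the contact with a target cell. Perforin opens the target membrane, and granzymes, which are serine proteases, pass through it. Granzyme A is a tryptase and granzyme B cleaves after aspartate and sets off apoptosis, while serglycin (Srgn) is the proteoglycan core on which the granule cargo is packed. Nkg7 is a granule membrane protein needed for efficient release and Ctsw (cathepsin W) a protease of T and NK cells. Gzmk marks memory CD8 T cells in mice, and NK cells and short-lived Klrg1+ effector CD8 T cells are known for high Gzma and Gzmb.

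In the mm10 annotation (GENCODE vM21) the granzyme genes lie in clusters. Gzma (ENSMUSG00000023132, chr13:113093825-113100981, minus strand) and Gzmk (ENSMUSG00000042385, chr13:113171608-113225908, minus strand) are 70.6 kb apart with 0 protein-coding genes between them. Gzmb (ENSMUSG00000015437, chr14:56258838-56262260) and Gzmc (ENSMUSG00000079186, chr14:56231441-56234656), both on the minus strand, are 24.2 kb apart with 0 between them. Gzmm (chr10:79689020-79695261) and Prf1 (chr10:61297833-61304680) are on the plus strand of chromosome 10, Srgn (chr10:62493833-62527451) is on its minus strand, Nkg7 is at chr7:43437073-43438249 on the plus strand and Ctsw at chr19:5465043-5468507 on the minus strand. Gzmk overlaps Esm1 and Ctsw overlaps Fibp, both on the opposite strand. Gzmc has closely similar neighbours (Gzmd, Gzme, Gzmf, Gzmg and Gzmn), so reads that match several of them may be missing or misplaced and its level is uncertain.

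The promoters of these 2 neighbouring pairs are shown because the genes of each pair, though neighbours, had unlike levels over the gates: Gzma was far higher in NK than in CD8 T barcodes and Gzmk the reverse, and Gzmc, unlike Gzmb, was lower in NK barcodes with Ly49 or Itga2 than in those without. Each is a RefSeq window of GRCm38.p6 from 250 bases before to 50 bases after the gene start, 5′ to 3′ on the minus strand, at chr13:113100932-113101231 for Gzma, chr13:113180916-113181215 for Gzmk (inside the longer span of the GENCODE model), chr14:56262285-56262584 for Gzmb and chr14:56234608-56234907 for Gzmc. Capitals mark the letters GTGTGA (a T-box core), TGTGGT (a RUNX core) and TGANTCA (AP-1), searched on both strands.
Gzma: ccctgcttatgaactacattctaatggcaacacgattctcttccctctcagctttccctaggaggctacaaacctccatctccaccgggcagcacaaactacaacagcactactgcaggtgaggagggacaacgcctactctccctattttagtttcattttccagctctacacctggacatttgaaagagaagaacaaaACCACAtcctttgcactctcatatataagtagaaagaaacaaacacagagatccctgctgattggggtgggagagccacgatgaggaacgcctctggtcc
Gzmk: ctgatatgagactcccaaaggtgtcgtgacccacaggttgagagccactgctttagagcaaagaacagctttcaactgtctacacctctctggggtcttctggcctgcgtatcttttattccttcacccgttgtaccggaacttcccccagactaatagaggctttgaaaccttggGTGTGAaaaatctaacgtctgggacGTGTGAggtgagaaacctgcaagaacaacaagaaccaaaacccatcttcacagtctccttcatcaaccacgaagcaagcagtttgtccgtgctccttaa
Gzmb: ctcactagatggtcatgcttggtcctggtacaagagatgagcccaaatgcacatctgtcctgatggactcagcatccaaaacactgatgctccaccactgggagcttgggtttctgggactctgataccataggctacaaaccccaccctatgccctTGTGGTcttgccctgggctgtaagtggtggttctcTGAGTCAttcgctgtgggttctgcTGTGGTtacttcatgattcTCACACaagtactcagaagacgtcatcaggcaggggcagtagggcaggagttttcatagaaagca
Gzmc: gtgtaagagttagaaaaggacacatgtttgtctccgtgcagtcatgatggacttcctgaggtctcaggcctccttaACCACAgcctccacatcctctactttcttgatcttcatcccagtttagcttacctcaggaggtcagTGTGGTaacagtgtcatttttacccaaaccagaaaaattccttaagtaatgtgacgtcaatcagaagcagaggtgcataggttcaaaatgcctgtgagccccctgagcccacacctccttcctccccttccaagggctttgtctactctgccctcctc
The Gzma window held the RUNX letters and the Gzmk window, its neighbour, the T-box letters alone. All 3 motifs were in the Gzmb window and the RUNX letters in that of Gzmc. Of the 9 genes 8 had a RefSeq promoter in the table used, all but Ctsw. Gzmm and Srgn had 2 windows each. Of the 10 windows 7 held the RUNX letters, 4 the T-box letters and 1 the AP-1 letters. Over all 32851 windows of this length the shares were 16.8% for RUNX, 14.5% for T-box and 7.81% for AP-1. A match of letters is a description of the sequence and not a site shown to be bound.

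Barcodes with at least 1000 UMIs (unique molecular identifiers, each a counted transcript) and under 10% mitochondrial UMIs were kept: 3982 with a median of 7714 UMIs in knockout and 3420 with a median of 8741.5 UMIs in flox, of which 3 barcode sequences were in both. Gates were set on raw UMIs. The CD8 T gate asked for at least 2 UMIs of Cd3d and Cd3e together and at least 1 of Cd8a and Cd8b1, and it was split by whether Klrg1, a receptor of effector cells, had a UMI. NK barcodes had at least 1 UMI of Ncr1 and 0 of Cd3d and Cd3e, and were split by the Ly49 genes Klra8 and Klra4 and the integrin Itga2. The Cd4 T gate (Cd4 without Cd8a and Cd8b1) and the Cd163l1 T gate (type 17 gamma-delta T cells are known for Cd163l1) completed the set, with 13 knockout and 12 flox barcodes in both the CD8 T and the Cd163l1 T gates. CPM stands here for UMIs of a gene in every 1000000 UMIs of all barcodes in a gate. The CD8 T, Cd4 T and NK gates carried the markers of their names in both libraries. Cd3g, Trac, Trbc2, Cd2 and Lat summed to 3372 CPM in knockout and 3419 CPM in flox CD8 T barcodes and to 3683 CPM in knockout and 3689.7 CPM in flox Cd4 T barcodes. Klrb1c, Klre1, Tyrobp, Fcer1g and Eomes summed to 6994 CPM in knockout and 6592 CPM in flox NK barcodes. The 5 summed to 7338 CPM in knockout and 7037.5 CPM in flox NK barcodes with Ly49 or Itga2. In those without, they summed to 4689 CPM in knockout and 4515 CPM in flox. Eomes was scarce in those without, at 25.4 CPM in knockout and 46.4 CPM in flox, and Cd3g stood there at 36.2 CPM in knockout and 133 CPM in flox. In barcodes gated as myeloid the 5 summed to 5578 CPM in knockout and 5693 CPM in flox, nearly all Tyrobp and Fcer1g. Their sum alone thus does not set NK apart from myeloid barcodes. Klrb1c stood at 562 CPM in knockout and 504 CPM in flox NK barcodes without Ly49 or Itga2. In myeloid barcodes it stood at 0.675 CPM in knockout and 0.974 CPM in flox, and Klre1 went the same way.

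Sex and software touch every comparison of genotypes. Both libraries mixed male and female cells in unlike shares: 39.3% of kept barcodes in knockout and 65.7% in flox had Xist and none of 4 Y-linked transcripts (female), and in the CD8 T gate 28.6% in knockout and 72.5% in flox did. Male barcodes, with a Y-linked transcript and no Xist, were 43.0% of the CD8 T gate in knockout and 14.8% in flox, and the rest had both or neither. The file headers name Cell Ranger 7.0.1 for knockout and Cell Ranger 4 for flox, so the counting software cannot be told apart from the genotype. By default Cell Ranger 7.0.1 counts intronic reads and Cell Ranger 4 does not, and the setting used is not stated. The flox matrix also lists more barcodes than the kit chemistry named in the labels provides. How far these affect the genotype ratios was not tested. Il17ra itself stood at 123 CPM (119 to 127) in knockout and 132 CPM (128 to 136) in flox over all kept barcodes. A 3′ tag outside the deleted exons would still be counted, so this checks nothing about the deletion.

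Gzma was the member that differed most between the genotypes in T cells. In the CD8 T gate it stood at 839.6 CPM (821 to 858) in knockout (1051 barcodes) and 181 CPM (171 to 192) in flox (670 barcodes), 4.64-fold higher in knockout (4.36 to 4.93). In NK barcodes it was by far more abundant and nearly equal: 12159 CPM in knockout (276 barcodes) and 11876 CPM in flox (211 barcodes), a ratio of 1.02 (1.01 to 1.04). CD8 T barcodes thus held 21.4% of all Gzma UMIs of the knockout library and 4.77% of those of the flox library, and NK barcodes 68.7% in knockout and 85.4% in flox.

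**Figure D1:**
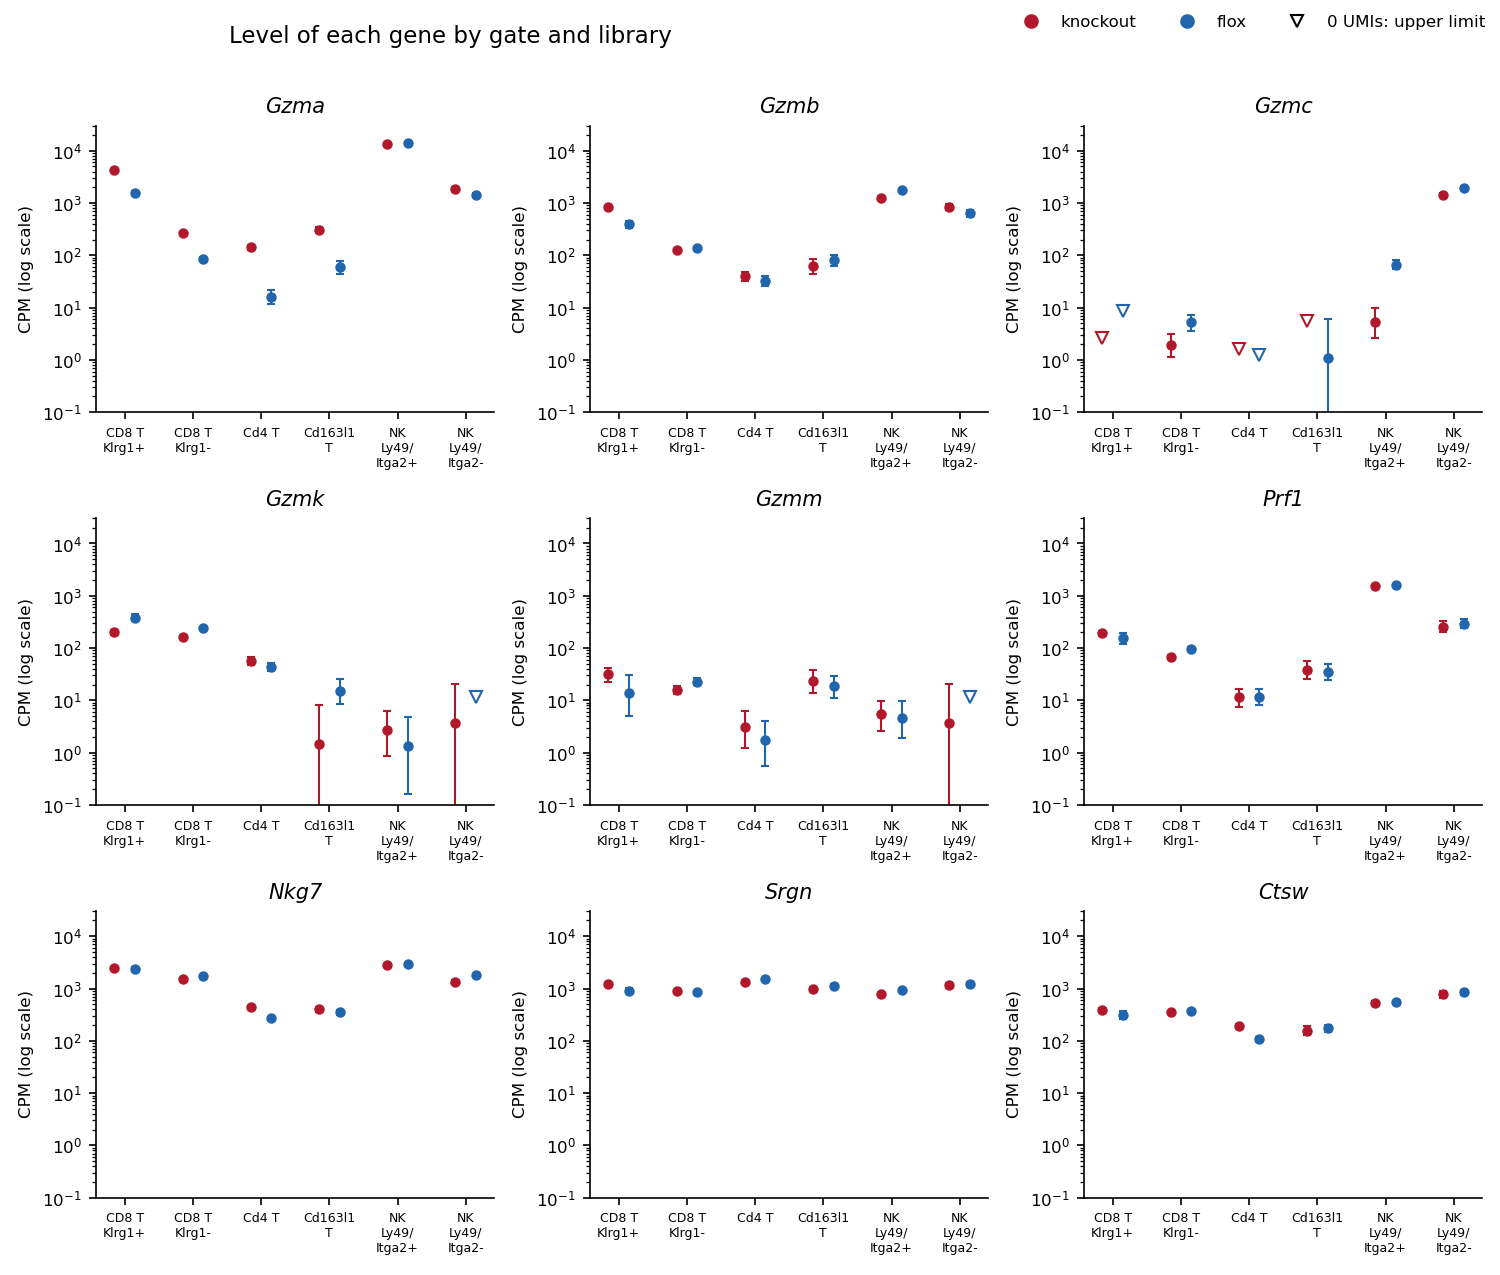
Level of each of the 9 genes in 6 gates, as CPM on a log axis with 95% Poisson intervals, knockout left of flox in each pair; open triangles mark the upper limit where a gate had 0 UMIs. Gzma reaches 13691 CPM in knockout and 14112 CPM in flox Ly49/Itga2+ NK barcodes and is higher in knockout than in flox in the 4 T gates, while Srgn lies between 795 and 1494 CPM in all 6 gates.

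Part of the Gzma difference in CD8 T cells went with how many were Klrg1+. Klrg1+ barcodes were 18.5% of the CD8 T gate in knockout (194 of 1051, exact interval 16.2 to 20.9%) and 6.87% in flox (46 of 670, 5.07 to 9.05%). Gzma was 15.8-fold higher in Klrg1+ than in Klrg1- barcodes in knockout (15.0 to 16.5) and 18.1-fold higher in flox (16.1 to 20.3). It also differed between genotypes within each subset. Klrg1+ barcodes had 4189.9 CPM (4083 to 4298) in knockout and 1563 CPM (1447 to 1685) in flox, 2.68-fold higher in knockout (2.48 to 2.91). Klrg1- barcodes had 266 CPM (255 to 277) in knockout and 86.5 CPM (79.4 to 94.1) in flox, 3.08-fold higher (2.80 to 3.39). When the 2 knockout subsets were weighted to the share of CD8 T UMIs that Klrg1+ barcodes held in flox (6.41%, against 14.6% in knockout), Gzma in knockout CD8 T cells came to 518 CPM, against 181 CPM in flox, a ratio of 2.86. Markers of other cells differed in these barcodes as well. Among Klrg1+ barcodes the NK markers Klrb1c, Klre1, Tyrobp, Fcer1g and Eomes, none at 0, summed to 789.6 CPM in knockout and 623 CPM in flox, but they went both ways. Klrb1c stood at 88.4 CPM in knockout and 9.30 CPM in flox and Klre1 at 474 CPM in knockout and 193 CPM in flox, whereas Tyrobp stood at 86.3 CPM in knockout and 144 CPM in flox, Fcer1g at 64.9 CPM in knockout and 105 CPM in flox, and Eomes was also lower in knockout. Over the CD8 T gate the 5 summed to 370.2 CPM in knockout and 352 CPM in flox. The myeloid markers Lyz2, Csf1r, Cst3 and Itgam, none at 0, summed to 250 CPM in knockout and 567 CPM in flox among Klrg1+ barcodes. Each was lower in knockout there, with Lyz2 at 104 CPM in knockout and 353 CPM in flox. Over the CD8 T gate these markers, none at 0, summed to 234 CPM in knockout and 356 CPM in flox. Of B cell markers, Ighm stood there at 88.0 CPM in knockout and 60.5 CPM in flox and Cd79a at 39.0 CPM in knockout and 10.6 CPM in flox. Their part in the Gzma values was not tested.

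Most CD8 T barcodes had no Gzma in either library, and in flox few barcodes held much of it. The 10 highest barcodes carried 17.8% of the CD8 T gate's Gzma UMIs in knockout and 49.8% in flox. Among the 46 flox Klrg1+ barcodes, 10 carried 87.1% of the UMIs, whereas 10 of the 194 in knockout carried 23.1%. With every barcode thinned to 2000 UMIs, 69.4% of Klrg1+ barcodes in knockout (62.4 to 75.8%) and 32.6% in flox (19.5 to 48.0%) had a Gzma UMI; before thinning the shares were 74.2% in knockout and 41.3% in flox. Klrg1+ barcodes with any Gzma had a median of 32.5 Gzma UMIs in knockout and 31 in flox. Thus among Klrg1+ barcodes the share with Gzma differed and the median among those with it was close. The flox median rests on 19 barcodes, and the medians are raw UMIs at unlike depths (median 6718 UMIs in knockout and 8622 in flox). Klrg1- barcodes stood the other way. Before thinning 15.1% of them in knockout and 13.9% in flox had Gzma, with medians of 7 Gzma UMIs in knockout and 2 in flox. B cells, which should lack the gene and had median depths of 6447 UMIs in knockout and 6239 in flox, showed it in 1.15% of thinned barcodes in knockout and 0.161% in flox.

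In the other T gates the Gzma ratios rested on few barcodes. The Cd4 T gate had 142 CPM (126 to 158) in knockout (274 barcodes) and 16.1 CPM (11.8 to 21.4) in flox (336 barcodes), 8.78-fold higher in knockout (6.45 to 12.2), but 10 barcodes held 95.6% of the 321 knockout UMIs and 1 barcode held 76 of them. Without the highest barcode of each library the Cd4 T ratio was 10.9. The Cd163l1 T gate had 307 CPM in knockout (74 barcodes) and 59.3 CPM in flox (100 barcodes), with 132 of 207 knockout UMIs in 1 barcode. Only 8 knockout and 9 flox Cd163l1 T barcodes had any Gzma. In this gate the 5 NK markers summed to 175 CPM in knockout and 92.2 CPM in flox, with Klra4 at 59.3 CPM in knockout and 0 in flox and Ncr1 at 14.8 CPM in knockout and 0 in flox. The B cell marker Ighm stood there at 74.1 CPM in knockout and 28.5 CPM in flox and Ms4a1 at 29.6 CPM in knockout and 0 in flox, and the part of these markers in the Gzma values was not tested. In order of level, knockout ran from Ly49/Itga2+ NK (13691 CPM) to Klrg1+ CD8 T, Ly49/Itga2- NK (1884 CPM), Cd163l1 T, Klrg1- CD8 T and Cd4 T, with overlapping intervals for Cd163l1 T and Klrg1- CD8 T. In flox it ran from Ly49/Itga2+ NK (14112 CPM) to Klrg1+ CD8 T, Ly49/Itga2- NK (1442 CPM), Klrg1- CD8 T, Cd163l1 T and Cd4 T, and the intervals of Klrg1+ CD8 T and Ly49/Itga2- NK overlapped.

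Gzmk, the granzyme next to Gzma, was a CD8 T gene and went the other way. It stood at 168 CPM (159 to 176) in knockout and 251 CPM (239 to 263) in flox CD8 T barcodes, a ratio of 0.667 (0.623 to 0.715), and the CD8 T gate held 89.4% of all Gzmk UMIs in knockout and 87.6% in flox. Both subsets had less of it in knockout: 200.4 CPM in knockout and 381 CPM in flox among Klrg1+ barcodes, a ratio of 0.526 (0.432 to 0.641), and 162 CPM in knockout and 242 CPM in flox among Klrg1- barcodes, a ratio of 0.668 (0.620 to 0.720). The Klrg1- direction was not the same in both sexes, with ratios of 0.542 (0.482 to 0.609) among female and 1.39 (1.16 to 1.67) among male barcodes. NK barcodes had 6 Gzmk UMIs in knockout and 2 in flox. Cd4 T barcodes had 56.9 CPM (47.5 to 67.6) in knockout and 43.2 CPM (36.0 to 51.4) in flox, a ratio of 1.32 (1.02 to 1.70). The Cd163l1 T gate had 1 Gzmk UMI in knockout and 14 in flox. After thinning to 2000 UMIs, 22.6% of CD8 T barcodes in knockout (20.1 to 25.2%) and 35.8% in flox (32.2 to 39.6%) had a Gzmk UMI, against 42.8% in knockout and 62.8% in flox before thinning and 0.209% of knockout and 0% of flox B cells after it (0 of 623, which allows up to 0.482%).

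Over the whole CD8 T gate Gzmk was about as frequent in barcodes with Gzma as in those without it. After thinning, 24.2% of knockout CD8 T barcodes with Gzma (54 of 223, 18.7 to 30.4%) and 22.1% of those without it (181 of 818, 19.3 to 25.1%) had Gzmk, and in flox 37.9% of those with Gzma (22 of 58, 25.5 to 51.6%) and 35.6% of those without it (216 of 606, 31.8 to 39.6%) did. The intervals overlapped in both libraries. In knockout the subsets went opposite ways, with overlapping intervals. Among Klrg1- barcodes 31.5% with Gzma (22.0 to 42.2%) and 22.0% without it (19.1 to 25.1%) had Gzmk. Among Klrg1+ barcodes 19.4% with Gzma (13.1 to 27.1%) and 23.7% without it (13.6 to 36.6%) did. In flox the shares were 34.9% with and 35.1% without Gzma among Klrg1- and 46.7% with and 45.2% without it among Klrg1+ barcodes. At 2000 UMIs a barcode, 16.2% of knockout and 5.42% of flox CD8 T barcodes had Gzma without Gzmk, 5.19% of knockout and 3.31% of flox had both, and 17.4% of knockout and 32.5% of flox had Gzmk without Gzma. The share with neither was 61.2% in knockout (58.2 to 64.2%) and 58.7% in flox (54.9 to 62.5%), with overlapping intervals. Gzmb followed Gzma: in knockout it stood at 961 CPM in barcodes with Gzma alone, 995 CPM in those with both, 126 CPM in those with Gzmk alone and 72.9 CPM in those with neither. In flox it was 483 CPM with Gzma alone, 813 CPM with both, 203 CPM with Gzmk alone and 77.4 CPM with neither. Prf1 ran from 55.9 CPM with neither to 235 CPM with both in knockout and from 77.2 CPM with neither to 200.4 CPM with both in flox. Nkg7 was about as high with Gzmk alone (2419 CPM in knockout and 2505 CPM in flox) as with Gzma alone (2329 CPM in knockout and 2023 CPM in flox).

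**Figure D2:**
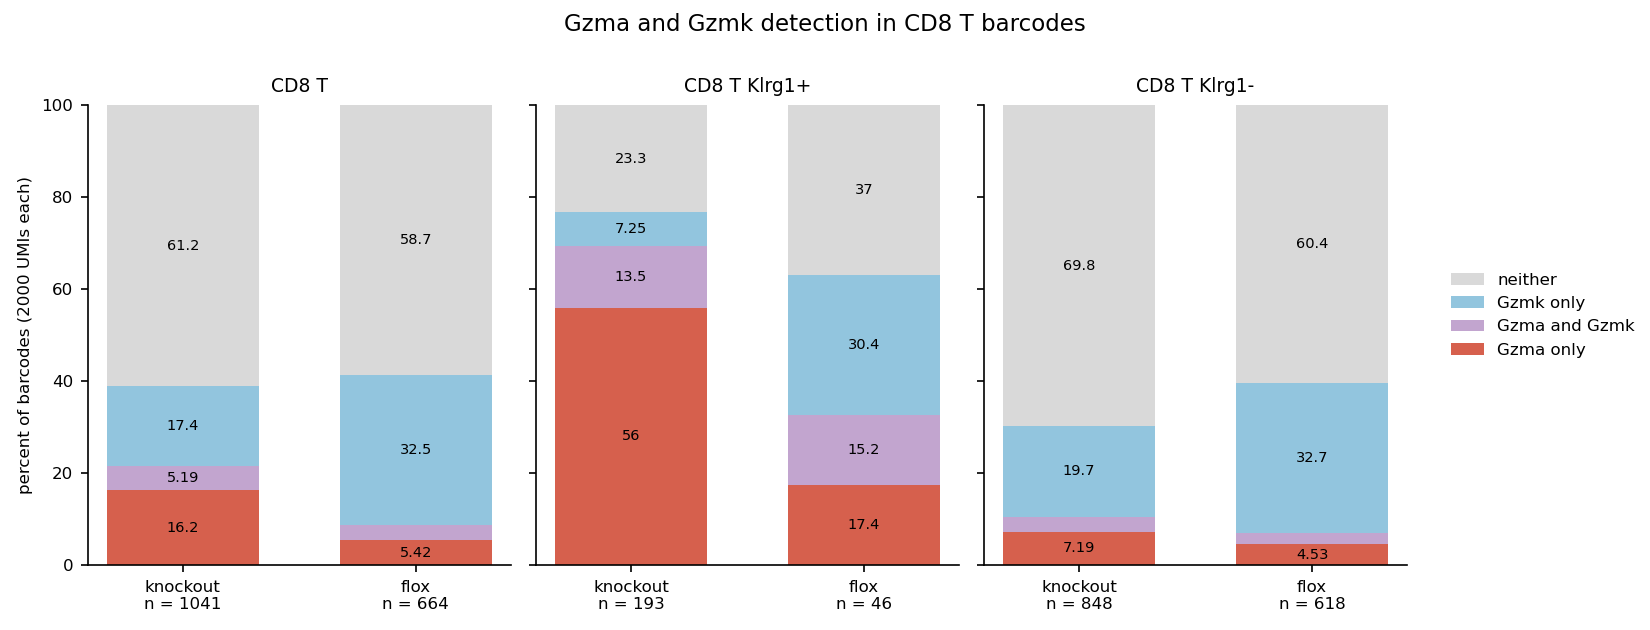
Percent of CD8 T barcodes, each thinned to 2000 UMIs, with Gzma only, Gzma and Gzmk, Gzmk only or neither, in the whole gate and by Klrg1, knockout left of flox. Among Klrg1+ barcodes 56.0% in knockout and 17.4% in flox had Gzma only, and 7.25% in knockout and 30.4% in flox had Gzmk only.

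Gzmb, the aspartate-specific granzyme, was higher in knockout in Klrg1+ CD8 T cells and lower in NK cells. Klrg1+ barcodes had 822 CPM (776 to 871) in knockout and 388 CPM (332 to 452) in flox, 2.12-fold higher in knockout (1.80 to 2.51). Klrg1- barcodes had 127 CPM (119 to 135) in knockout and 135 CPM (126 to 145) in flox, a ratio of 0.935 with an interval across 1 (0.853 to 1.03). The whole CD8 T gate stood at 228 CPM (219 to 238) in knockout and 152 CPM (142 to 161) in flox, a ratio of 1.51 (1.40 to 1.62), and weighting the knockout subsets to the flox share of Klrg1+ UMIs gave 171 CPM and a ratio of 1.13. Gzmb was 6.50-fold higher in Klrg1+ than in Klrg1- barcodes in knockout (5.97 to 7.07) and 2.87-fold higher in flox (2.42 to 3.39). After thinning, 62.2% of knockout (54.9 to 69.0%) and 37.0% of flox (23.2 to 52.5%) Klrg1+ barcodes had a Gzmb UMI, against 83.5% in knockout and 56.5% in flox unthinned and 0.209% of knockout and 0% of flox thinned B cells.

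NK barcodes had 1197 CPM of Gzmb (1151 to 1245) in knockout and 1581 CPM (1524 to 1640) in flox, a ratio of 0.757 (0.718 to 0.799). The Ly49/Itga2+ barcodes had 1250.5 CPM (1200 to 1302) in knockout and 1784 CPM (1717 to 1852) in flox, a ratio of 0.701 (0.663 to 0.741). In the few Ly49/Itga2- barcodes it stood the other way, with 841 CPM (736 to 956) in knockout (33 barcodes) and 634 CPM (551 to 728) in flox (32 barcodes). The lower level in knockout was found in both sexes, with NK ratios of 0.738 (0.686 to 0.795) among female and 0.773 (0.682 to 0.877) among male barcodes. The B cell marker Ighm stood at 90.8 CPM in knockout and 42.6 CPM in flox NK barcodes and Cd79a at 48.9 CPM in knockout and 2.73 CPM in flox, with Ms4a1 at 0 in flox. Among Ly49/Itga2- barcodes Ighm stood at 178 CPM in knockout and 102 CPM in flox, and the myeloid markers summed to 2073 CPM in knockout and 1266 CPM in flox, Lyz2 at 1381 CPM in knockout and 21.7 CPM in flox, Csf1r at 119.6 CPM in knockout and 3.09 CPM in flox and Cst3 at 453 CPM in knockout and 1173 CPM in flox. Their part in the NK values of Gzmb and Gzmc was not tested. Cd4 T barcodes had 39.7 CPM of Gzmb in knockout and 32.2 CPM in flox and Cd163l1 T barcodes 62.2 CPM in knockout and 80.1 CPM in flox, with overlapping intervals in both gates.

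Gzmc was a gene of the NK barcodes without Ly49 or Itga2, whose Gzmb was not absent: barcodes of this subset with Gzmc and no Gzma after thinning, 14 in knockout and 16 in flox, had 1449 CPM of Gzmb in knockout and 1025 CPM in flox. The Ly49/Itga2- barcodes had 1439 CPM (1301 to 1587) in knockout and 1949.8 CPM (1800.5 to 2108) in flox, and the Ly49/Itga2+ barcodes 5.40 CPM (2.59 to 9.94) in knockout and 66.3 CPM (54.0 to 80.7) in flox, of whose 100 flox UMIs 58 were in 1 barcode. Ly49/Itga2+ over Ly49/Itga2- ratios were 0.00376 (0.00179 to 0.00698) in knockout and 0.0340 (0.0273 to 0.0421) in flox. Gzma ran opposite, 7.27-fold higher in Ly49/Itga2+ NK barcodes in knockout (6.66 to 7.94) and 9.79-fold higher in flox (8.93 to 10.7). Over the NK gate Gzmc was lower in knockout, at 191 CPM (173 to 211) against 399 CPM (370 to 429) in flox, a ratio of 0.480 (0.424 to 0.543). In the Ly49/Itga2- barcodes the ratio was 0.738 (0.649 to 0.838), and these barcodes were 33 of 276 NK barcodes in knockout and 32 of 211 in flox. Here too the sexes stood apart: 21 female knockout barcodes had 1996 CPM and 26 female flox barcodes 1963 CPM (ratio 1.02, 0.883 to 1.17), whereas 7 male knockout barcodes had 5 UMIs and 4 male flox barcodes 89. The CD8 T gate had 16 Gzmc UMIs in knockout and 33 in flox, 31 of the flox UMIs in 1 barcode, so its ratio of 0.339 turned to 3.85 without the highest barcode of each library.

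**Figure D3:**
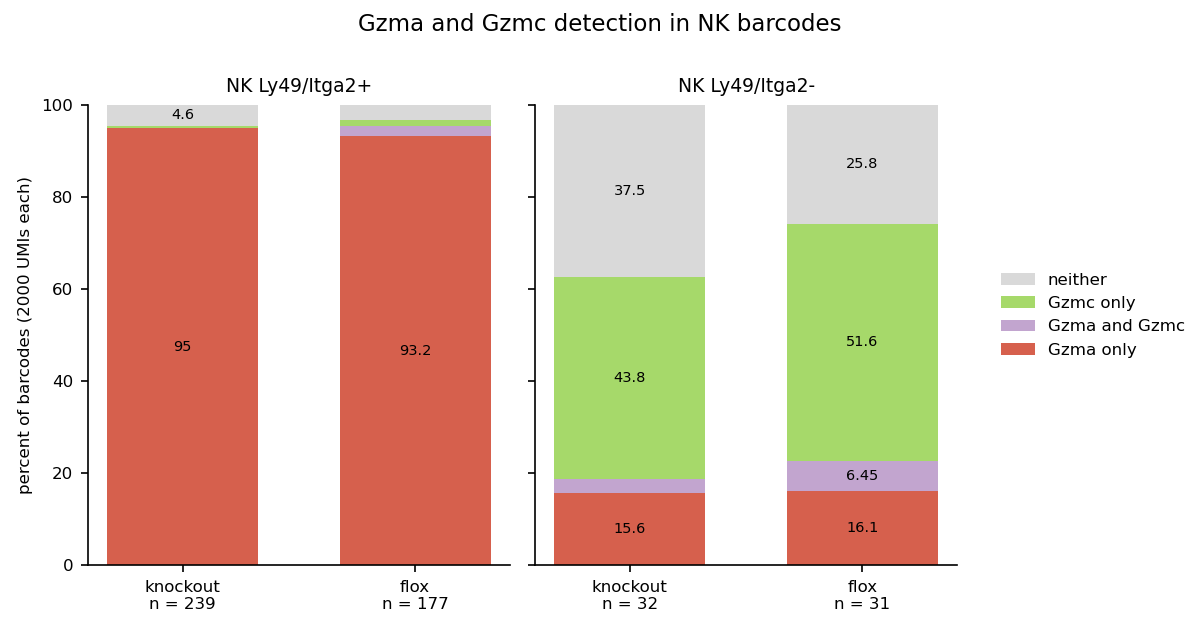
Percent of NK barcodes, each thinned to 2000 UMIs, with Gzma only, Gzma and Gzmc, Gzmc only or neither, by Ly49/Itga2, knockout left of flox. Gzma only was found in 94.98% of knockout and 93.2% of flox Ly49/Itga2+ barcodes, and Gzmc only in 14 of 32 knockout and 16 of 31 flox Ly49/Itga2- barcodes.

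Gzmm was scarce and, like Gzmk, was found more in CD8 T than in NK barcodes. Its level in CD8 T barcodes was 18.3 CPM (15.7 to 21.3) in knockout and 22.4 CPM (18.9 to 26.2) in flox, a ratio of 0.821 with an interval across 1 (0.656 to 1.03). Klrg1+ barcodes had 44 UMIs in knockout and 6 in flox (ratio 2.25, 0.955 to 6.46), and NK barcodes 11 in knockout and 7 in flox. Cd4 T barcodes had 7 UMIs in knockout and 5 in flox, and Cd163l1 T barcodes 16 in knockout and 17 in flox. Unlike Gzmk, Gzmm thus stood in Cd163l1 T barcodes near its CD8 T level, at 23.7 CPM in knockout and 18.7 CPM in flox. NK over CD8 T ratios of Gzmm were 0.282 (0.138 to 0.517) in knockout and 0.171 (0.0676 to 0.361) in flox.

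Prf1 was close between genotypes in NK barcodes and lower in knockout in Klrg1- CD8 T barcodes. NK barcodes had 1373 CPM (1324 to 1424) in knockout and 1384 CPM (1331 to 1439) in flox, a ratio of 0.992 (0.940 to 1.05). CD8 T barcodes had 86.5 CPM (80.7 to 92.6) in knockout and 98.5 CPM (91.2 to 106) in flox, a ratio of 0.878 (0.792 to 0.974). Its Klrg1+ subset stood at 190.5 CPM (168 to 215) in knockout and 156 CPM (121 to 198) in flox, and its Klrg1- subset at 68.7 CPM (63.2 to 74.7) in knockout and 94.6 CPM (87.2 to 103) in flox, a ratio of 0.727 (0.646 to 0.817), but by sex the Klrg1- ratios were 0.661 (0.552 to 0.788) among female and 1.12 (0.851 to 1.503) among male barcodes. The Klrg1- barcodes are those in which Gzma was 3.08-fold higher in knockout. Prf1 was 5.98-fold higher in Ly49/Itga2+ than in Ly49/Itga2- NK barcodes in knockout (4.73 to 7.68) and 5.50-fold higher in flox (4.48 to 6.83). In flox 1 barcode held 47 of the 95 Prf1 UMIs of the Ly49/Itga2- subset, and without the highest barcode of each subset the flox ratio was 10.5. Cd4 T barcodes had 26 UMIs of Prf1 in knockout and 34 in flox.

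The other granule genes differed little in CD8 T and NK barcodes. Nkg7 stood at 1647 CPM (1621 to 1672) in knockout and 1770.4 CPM (1739 to 1803) in flox CD8 T barcodes, and at 2625 CPM (2556 to 2694) in knockout and 2775 CPM (2699 to 2852) in flox NK barcodes, with ratios of 0.930 (0.908 to 0.952) in CD8 T and 0.946 (0.910 to 0.983) in NK. Ctsw had 366 CPM in knockout and 360.4 CPM in flox CD8 T barcodes, a ratio of 1.01 (0.963 to 1.07), and 567 CPM in knockout and 594 CPM in flox NK barcodes. Srgn, found in every gate, had 952 CPM (932 to 972) in knockout and 850.4 CPM (828 to 873) in flox CD8 T barcodes, a ratio of 1.12 (1.08 to 1.16), and 841 CPM in knockout and 966 CPM in flox NK barcodes, a ratio of 0.870 (0.814 to 0.930). B cells had 1153 CPM of Srgn in knockout and 1283 CPM in flox, and myeloid barcodes 1878 CPM in knockout and 1989 CPM in flox, above its level in CD8 T barcodes of the same library.

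In Cd4 T barcodes Nkg7 and Ctsw were higher in knockout, while Srgn had a ratio of 0.911 (0.870 to 0.954). Nkg7 stood at 436 CPM (410 to 464) in knockout and 271 CPM (253 to 291) in flox, a ratio of 1.61 (1.46 to 1.77). Ctsw stood at 192 CPM (174 to 211) in knockout and 107 CPM (95.4 to 119.5) in flox, a ratio of 1.79 (1.55 to 2.08). Unlike Gzma, both were spread over many barcodes: the 10 highest held 26.1% of Nkg7 UMIs in knockout and 32.1% in flox. After thinning, 33.3% of knockout (27.8 to 39.3%) and 25.4% of flox (20.8 to 30.4%) Cd4 T barcodes had Nkg7, intervals that overlap, against 43.4% in knockout and 35.7% in flox unthinned; in thinned B cells the shares were 1.26% in knockout and 0.803% in flox. Both were higher in knockout in each sex, with Nkg7 ratios of 1.38 (1.19 to 1.60) among female and 2.53 (1.97 to 3.28) among male barcodes and Ctsw ratios of 1.26 (0.994 to 1.60) among female and 2.58 (1.88 to 3.61) among male barcodes. Markers of other cells also differed in this gate: Lyz2, Csf1r, Cst3 and Itgam summed to 375 CPM in knockout and 222 CPM in flox, none of the 4 at 0. Of the NK list Tyrobp stood at 66.1 CPM in knockout and 29.5 CPM in flox and Fcer1g at 67.9 CPM in knockout and 36.0 CPM in flox, genes that myeloid cells are also known to express, whereas Klrb1c stood at 6.61 CPM in knockout and 8.23 CPM in flox and Klre1 at 4.41 CPM in knockout and 13.7 CPM in flox. The 5 summed to 158 CPM in knockout and 95.6 CPM in flox, none at 0, and the part of these markers in the Cd4 T values was not tested.

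Counted together, 2 of 9 members were at least 1.5-fold higher in knockout in the CD8 T gate (Gzma and Gzmb), where 7.72% of the 12147 genes with at least 20 UMIs were, and 1 was at least 1.5-fold lower (Gzmc, the count that 1 barcode decides), where 5.97% of genes were. Gzmb, at 1.51, lay just inside the fold and Gzmk, 1.499-fold lower, just outside it. In Klrg1+ barcodes, of 8 members measured, 3 were higher (Gzma, Gzmb and Gzmm) and 1 lower (Gzmk), beside 19.9% of genes higher and 9.71% lower. In Klrg1- barcodes 1 of 9 was higher (Gzma) and 1 lower (Gzmc), beside 7.48% higher and 5.93% lower. In the Cd4 T gate 3 of 7 were higher (Gzma, Nkg7 and Ctsw) and 0 lower, beside 7.73% higher and 9.03% lower. The Cd163l1 T gate had 1 of 7 higher (Gzma) and 0 lower, beside 12% higher and 7.77% lower, and the NK gate had 0 of 7 higher and 1 lower (Gzmc), beside 7.9% higher and 6.42% lower. The median log2 ratio of the members was -0.10 in CD8 T, 0.40 in Cd4 T and -0.08 in NK, beside 0.04, 0.01 and 0.01 over all genes measured there.

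**Figure D4:**
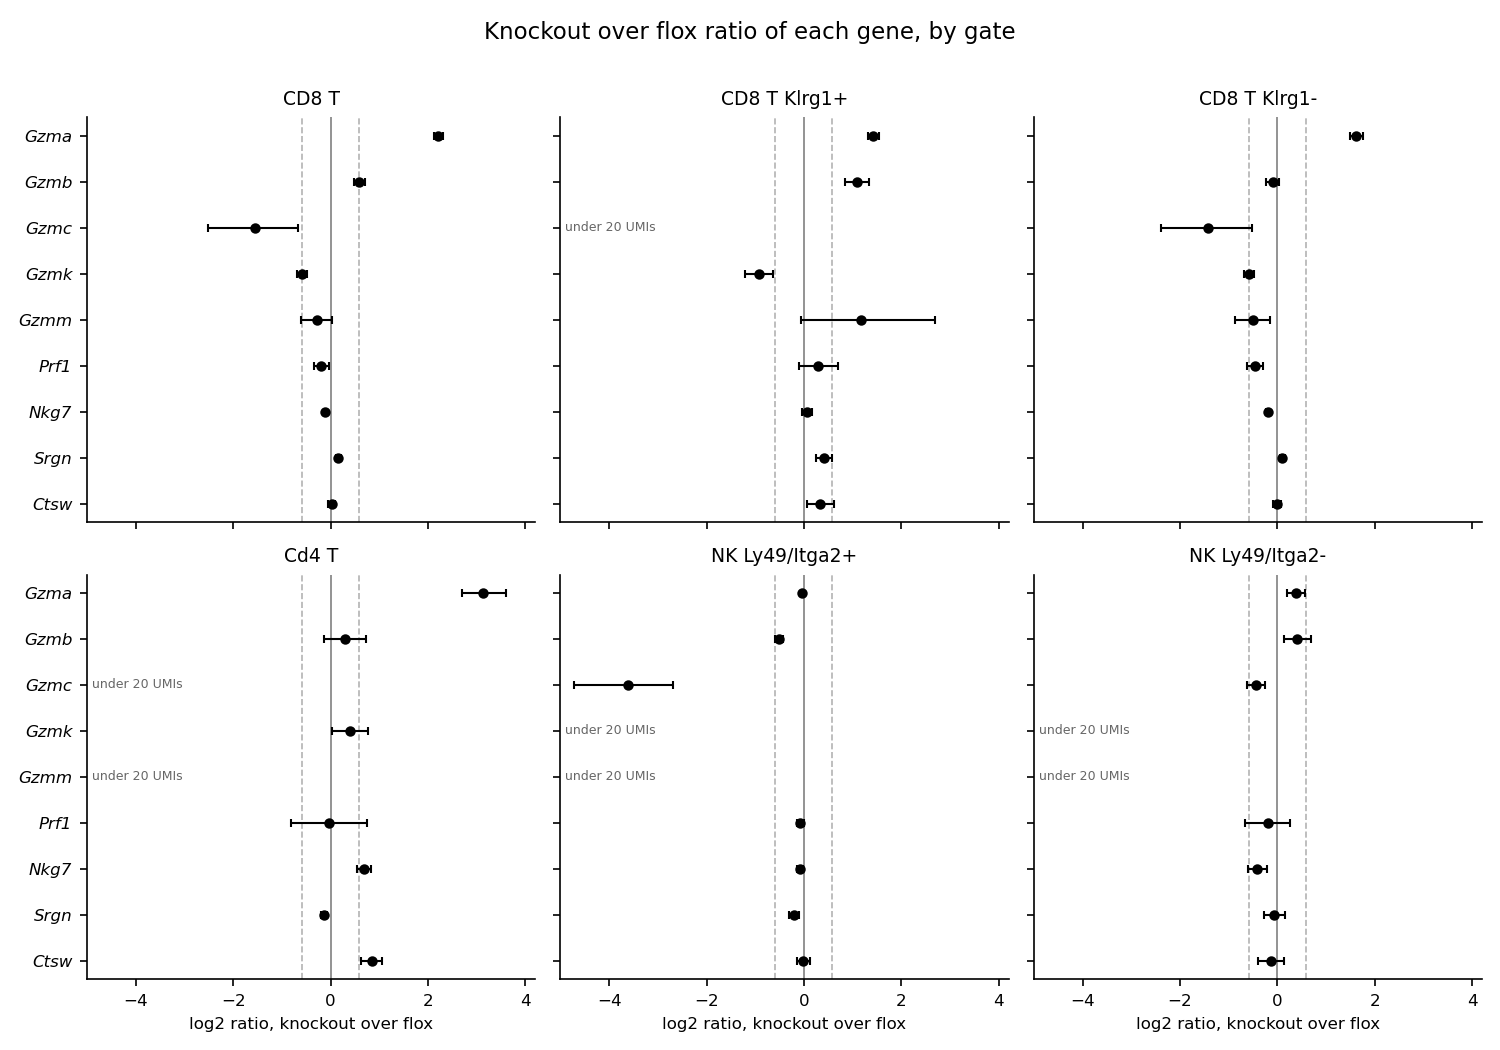
Knockout over flox log2 ratio of each gene in 6 gates with 95% conditional binomial intervals; dashed lines mark 1.5-fold either way. Gzma lies right of the line in the CD8 T, Klrg1+, Klrg1- and Cd4 T panels and at 0 in Ly49/Itga2+ NK, where Gzmb and Gzmc lie left of 0.

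Within each library, more members were higher in Klrg1+ than in Klrg1- CD8 T barcodes. In knockout 5 of 8 were at least 1.5-fold higher (Gzma, Gzmb, Gzmm, Prf1 and Nkg7) and 0 lower, beside 16.2% of genes higher and 13.8% lower. In flox 4 of 9 were higher (Gzma, Gzmb, Gzmk and Prf1) and 2 lower (Gzmm, and Gzmc with 0 UMIs in Klrg1+ and 33 in Klrg1- barcodes, a ratio whose interval reaches 1.73), beside 15.6% higher and 19% lower. Gzmk stood at 1.24 times the Klrg1- level in knockout (1.08 to 1.41) and 1.57 times in flox (1.33 to 1.85), but the knockout direction turned when barcodes were thinned before gating (log2 ratio -0.22) and with the mean of each barcode's CPM (-0.034). Of 7 members measured in NK barcodes, 3 were higher in Ly49/Itga2+ than in Ly49/Itga2- barcodes in knockout (Gzma, Prf1 and Nkg7) and 1 lower (Gzmc), beside 24.2% higher and 15% lower. In flox 4 were higher (Gzmb too) and 2 lower (Gzmc and Ctsw), beside 22.6% higher and 16.5% lower. Gzmb was 1.49-fold higher in Ly49/Itga2+ barcodes in knockout (1.30 to 1.71) and 2.81-fold higher in flox (2.44 to 3.26).

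Set against CD8 T cells of the same library, NK barcodes had more Gzma, Gzmb, Gzmc, Prf1, Nkg7 and Ctsw and less Gzmk and Gzmm in both libraries. The NK over CD8 T ratio of Gzma was 14.5 (14.1 to 14.9) in knockout and 65.6 (61.9 to 69.5) in flox. For Prf1 it was 15.9 (14.7 to 17.2) in knockout and 14.0 (12.9 to 15.3) in flox, close in both libraries. Gzmk ran the other way, with ratios of 0.0168 (0.00617 to 0.0367) in knockout and 0.00435 (0.000526 to 0.0157) in flox.

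Because the sexes were mixed unequally, ratios were also taken within each sex. Gzma in CD8 T barcodes was higher in knockout in both, 3.84-fold among female (3.56 to 4.14) and 7.08-fold among male barcodes (6.06 to 8.33). Gzmb was 1.26-fold higher among female (1.13 to 1.42) and 1.65-fold among male barcodes (1.42 to 1.94). Gzmk differed in direction: its ratio was 0.574 (0.516 to 0.638) among female barcodes, with 155 CPM in knockout and 269.7 CPM in flox, and 1.18 (1.001 to 1.39) among male barcodes, with 188 CPM in knockout and 160.0 CPM in flox. Among Klrg1+ barcodes Gzmk was lower in knockout in both sexes, with ratios of 0.680 (0.509 to 0.905) among female and 0.432 (0.305 to 0.624) among male barcodes. Prf1 in CD8 T barcodes had ratios of 0.814 (0.698 to 0.949) among female and 1.32 (1.02 to 1.73) among male barcodes, and Nkg7 of 0.869 (0.839 to 0.900) among female and 1.20 (1.13 to 1.27) among male barcodes. The Klrg1+ share of CD8 T barcodes was higher in knockout in both sexes, with 14.3% in knockout (10.5 to 18.8%) and 6.996% in flox (4.89 to 9.64%) among female and 23.7% in knockout (19.8 to 27.9%) and 9.09% in flox (4.24 to 16.6%, 99 barcodes) among male barcodes. The Gzma difference of the smaller gates was not the same in both sexes. In Cd4 T the ratio was 25.4 (14.0 to 50.6) among female and 1.41 (0.779 to 2.66) among male barcodes. Cd163l1 T female barcodes had 4 Gzma UMIs in knockout and 35 in flox, and male barcodes 42 in knockout and 0 in flox. Of the 321 knockout Cd4 T UMIs only 118 were in female and 45 in male barcodes. Most of the 207 knockout Cd163l1 T UMIs were likewise in barcodes assigned to neither sex, so these splits leave out much of the gate ratios.

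**Figure D5:**
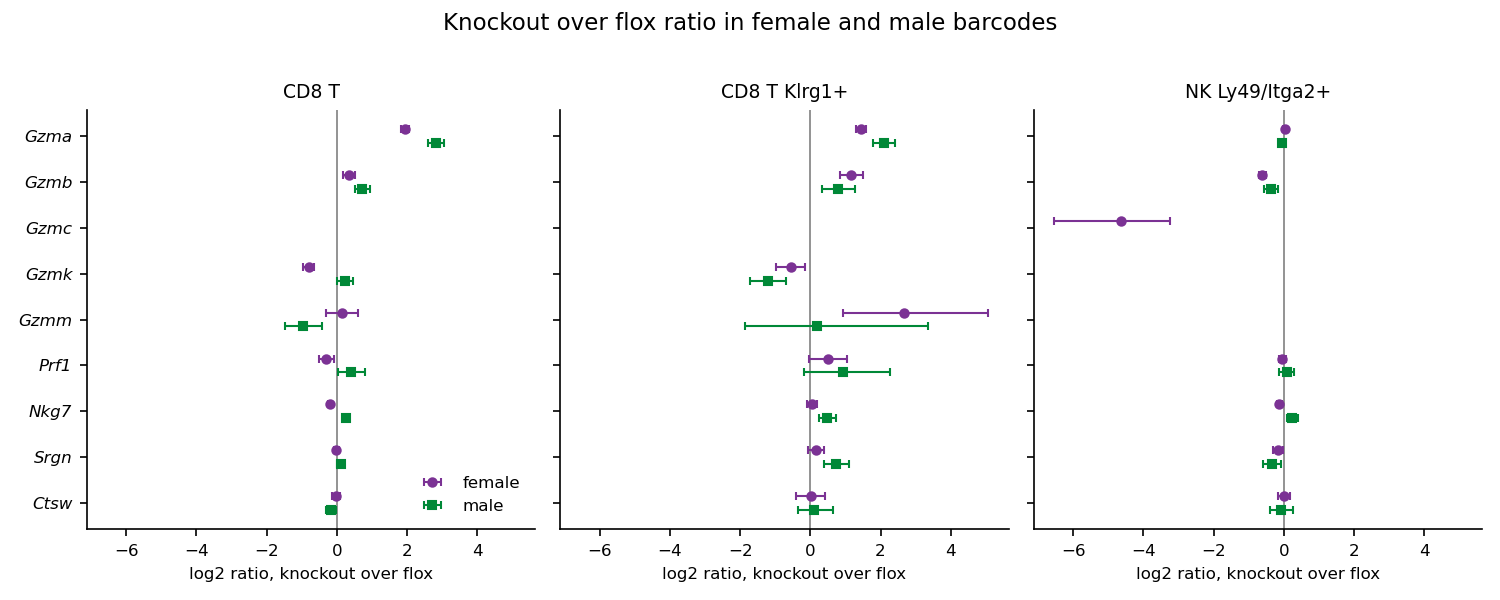
Knockout over flox log2 ratio of each gene among female (circles) and male (squares) barcodes in 3 gates, with 95% conditional binomial intervals; a gene with under 20 UMIs has no point. In CD8 T, Gzma and Gzmb lie right of 0 in both sexes, whereas Gzmk, Prf1 and Nkg7 lie left of 0 among female and right of it among male barcodes.

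The rest of the granule pathway was read from lists of genes. None of the other granzymes Gzmd, Gzme, Gzmf, Gzmg and Gzmn reached 20 UMIs in a gate. Of 17 genes for granule traffic and fusion, among them the docking factors Rab27a and Unc13d and the lysosomal protein Lamp1, 0 were past 1.5-fold in CD8 T, in Cd163l1 T or in NK, and 1 was in Cd4 T, the syntaxin Stx11 (26.0 CPM in knockout and 39.8 CPM in flox). Over all genes 7.72% were higher and 5.97% lower in CD8 T, and 12% higher and 7.77% lower in Cd163l1 T. The shares were 7.9% higher and 6.42% lower in NK, and 7.73% higher and 9.03% lower in Cd4 T. In Ly49/Itga2- NK barcodes 4 of 14 measured traffic genes were higher (Vamp8, Lyst, Lamp1 and Lamp2) and 2 lower (Vamp2 and Arl8b), beside 14.2% higher and 16.2% lower. Of 11 measured proteases, activators and inhibitors, such as the granzyme-activating cathepsin Ctsc and the granzyme B inhibitor Serpinb9, 0 were past 1.5-fold in CD8 T. In Cd4 T 0 of 11 were past it. In NK, of 12 measured, 1 was higher (Serpinb1a) and 1 lower (Ctsl). In Cd163l1 T, of 10, 0 were higher and 2 lower (Serpinb6b and Serpina3g), and in Ly49/Itga2- NK, of 10, 2 were higher and 2 lower. In Klrg1+ barcodes, where 19.9% of all genes were higher and 9.71% lower, 1 of the 17 traffic genes was higher (Arl8b) and 3 lower (Rab27a, Lyst and Lamp2), and of 10 proteases, activators and inhibitors 2 were higher (Ctsc and Serpinb1a) and 0 lower. Rab27a stood at 93.4 CPM in knockout and 165 CPM in flox (ratio 0.566, 0.421 to 0.767). Ctsc stood at 102 CPM in knockout and 62.8 CPM in flox, and Arl8b and Serpinb1a rested on 10 and 3 flox UMIs. Igf2r, a receptor for granzyme B, stood at 52.1 CPM in knockout and 93.0 CPM in flox. The receptor Crtam was 36.7 CPM in knockout and 60.4 CPM in flox CD8 T barcodes (ratio 0.608, 0.525 to 0.703).

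Several secreted effectors were higher in knockout T cells. In CD8 T, where 7.72% of all genes were higher, 3 of 5 secreted factors (Ifng, Ccl4 and Xcl1) and 2 of 5 death ligands (Lta and Tnf) were at least 1.5-fold higher and 0 lower. Ifng, the macrophage-activating interferon, stood at 215 CPM in knockout and 108 CPM in flox (ratio 1.996, 1.83 to 2.18), and the lymphotoxin gene Lta at 10.0 CPM in knockout and 4.32 CPM in flox. In Klrg1- barcodes 2 of 5 secreted factors (Ifng and Xcl1, not Ccl4) and 2 of 5 death ligands (Lta and Tnf) were higher. Of both lists 0 were lower there, beside 7.48% of all genes higher and 5.93% lower. Klrg1+ barcodes had 3 of 5 secreted factors (Ifng, Ccl3 and Ccl4) and 1 of 4 death ligands (Tnf) higher. Here too 0 were lower, beside 19.9% of all genes higher and 9.71% lower. In Klrg1+ barcodes the chemokine Ccl4 was 3.17-fold higher in knockout (2.80 to 3.62), at 1949 CPM against 614 CPM in flox. In Cd4 T, where 7.73% of all genes were higher, all 4 measured secreted factors (Ifng, Ccl4, Ccl5 and Xcl1) and 3 of 5 death ligands (Fasl, Lta and Tnf) were higher and 0 lower, with Ccl4 at 84.2 CPM in knockout and 18.5 CPM in flox and Xcl1 at 85.5 CPM in knockout and 27.1 CPM in flox. The NK receptor Slamf7 was higher there too (37.0 CPM in knockout and 15.4 CPM in flox). How the UMIs of these genes were spread over the Cd4 T barcodes was not tested. NK barcodes had 1 of 5 secreted factors higher, beside 7.9% of all genes, the chemokine Ccl3 (508 CPM in knockout and 333 CPM in flox). In the Ly49/Itga2+ NK subset Ifng was higher too, at 186 CPM in knockout and 88.2 CPM in flox (ratio 2.11, 1.73 to 2.60). Ccl3 stood there at 571 CPM in knockout and 331 CPM in flox (ratio 1.72, 1.55 to 1.92). In Ly49/Itga2- NK barcodes 0 of 5 were higher, beside 14.2% of all genes, and 3 lower (Ccl3, Ifng and Xcl1), beside 16.2%, with Xcl1 at 1113 CPM against 2132 CPM in flox (ratio 0.522, 0.455 to 0.598).

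Among 12 transcription factors of effector and memory cells, Tbx21, Zeb2 and Zfp683 were at least 1.5-fold higher and Eomes lower in knockout CD8 T barcodes, beside 7.72% of all genes higher and 5.97% lower. Zeb2, which acts with Tbx21 in terminal effector cells, stood at 198 CPM (ratio 2.11, 1.92 to 2.31) in knockout and 94.1 CPM in flox. Eomes, the T-box factor of memory cells, stood at 75.8 CPM in knockout and 143 CPM in flox (ratio 0.531, 0.481 to 0.585), and it was lower in both subsets, with 76.3 CPM in knockout and 172 CPM in flox among Klrg1+ barcodes. In Klrg1- barcodes, of 12 factors, only Zfp683 was higher and only Eomes lower, beside 7.48% of genes higher and 5.93% lower. In Klrg1+ barcodes, of 11 measured, 2 were higher (Tbx21 and Zeb2) and 1 lower (Eomes), beside 19.9% higher and 9.71% lower. Cd4 T barcodes had 2 of 11 higher (Eomes and Zeb2) and 0 lower, beside 7.73% higher and 9.03% lower. Eomes had only 29 UMIs there in knockout and 24 in flox. Of 10 measured in Ly49/Itga2- NK barcodes, 2 were higher (Zeb2 and Bach2) and 2 lower (Eomes and Tcf7), beside 14.2% higher and 16.2% lower. Prdm1, a repressor of memory genes, was 49.8 CPM in knockout and 26.8 CPM in flox NK barcodes (ratio 1.86, 1.32 to 2.67). In Cd163l1 T barcodes 3 of 11 were higher in knockout, beside 12% of all genes, and 0 lower: Zeb2 at 179 CPM in knockout and 98.8 CPM in flox, the memory-associated repressor Bach2 at 210.5 CPM in knockout and 124 CPM in flox, and Id2 at 508 CPM in knockout and 334 CPM in flox.

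Over 12 points, 6 gates in each of 2 libraries, the members fell into patterns. On log2(CPM + 10), Gzma, Gzmb and Prf1 went together, with Pearson r of 0.94 for Gzma and Gzmb, 0.92 for Gzma and Prf1 and 0.95 for Gzmb and Prf1. Gzmk was apart from all 3, with r of -0.29 to Gzma, -0.25 to Gzmb and -0.35 to Prf1, and among the members nearest to Gzmm (0.52). Gzmc was nearest to Ctsw (0.74). The genes outside the list most like Gzma were Cript, St3gal4, Ctsd and Itgb2 (r 0.957 to 0.946), and those most like Gzmb were Efhd2, Ctsd, Klrc2 and Klre1 (0.981 to 0.963). Those most like Prf1 were Txk, Klrc2, Ugcg and Arsb (0.985 to 0.966), and those most like Gzmk were Epha3, Unc5cl, Plcxd2 and Ifi214 (0.966 to 0.944). These r describe 12 points that share 2 libraries and, within each, their depth.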

How the data were processed

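Live CD45+ leukocytes of mouse RPE and choroid were profiled in 1 knockout and 1 flox library by 10x Genomics 3′ single-cell RNA sequencing, and both groups had received sodium iodate. The deposited matrices hold raw UMI counts per gene and barcode, made with Cell Ranger on mm10 per the submitters' processing notes. Per the file headers, Cell Ranger 4 made the flox counts and Cell Ranger 7.0.1 the knockout counts. Whether intronic reads were counted, and whether by strand, is not stated in the labels or headers. Cell Ranger 7.0.1 counts intronic reads by default and Cell Ranger 4 does not. Knockout lists 4096 barcodes, none under 500 UMIs, and flox 1002803, so the knockout list had been filtered and the flox list had not. Total UMIs were 35944330 in knockout and 38623933 in flox.

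Barcodes with at least 1000 UMIs and under 10% mitochondrial UMIs were kept and gated on raw counts. Doublets were kept; Scrublet (scanpy 1.11.5) marked 56 barcodes (1.41%) in knockout and 24 (0.702%) in flox, and leaving them out was an alternative. UMIs were summed per gate and library. Levels carry exact Poisson intervals, ratios conditional binomial intervals and shares exact Clopper-Pearson intervals, all at 95%. A ratio was taken where a gene had at least 20 UMIs over both sides, and a gene counted as higher or lower past 1.5-fold. Shares used barcodes thinned to 2000 UMIs. The floor for a count of 0 was 3 counts. Python with numpy 2.4.6, scipy 1.17.1, pandas 2.3.3 and matplotlib 3.10.9 was used, and ratios and counts were tested on simulated data. Alternatives were other depth and mitochondrial limits, stricter gates, thinning, doublets or each gene's highest barcode left out, each sex alone, subtraction of free RNA, other scalings and another fold. The free RNA profile came from flox barcodes of 1 to 100 UMIs and was subtracted in both libraries at 5% of a gate's UMIs. Knockout lists no such barcodes, so its own free RNA was not measured.

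The members and lists were chosen with earlier results of these data known. Besides the members, list genes with at least 100 UMIs in a gate and a ratio past 1.5-fold were named, up to 3 each way per gate, and the 4 genes most like each of 5 members by Pearson r of log2(CPM + 10). The genes most like Gzmc, the marker sum of the Cd163l1 T gate and that of B cells are not reported here.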

Additional observations from a re-analysis of the deposited data

Results flagged for a closer look

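The knockout over flox log2 ratio of Gzmb was higher in Klrg1+ CD8 T than in Ly49/Itga2+ NK barcodes by 1.59, with opposite directions in the 2 gates, and with 1 library per genotype the difference was not tested. Within CD8 T barcodes the log2 ratios of Gzmk, Prf1 and Nkg7 were higher among male than among female barcodes by 1.03, 0.70 and 0.46, again with opposite directions, and these differences were not tested.

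The flox matrix also lists 778499 barcodes of 1 to 100 UMIs, taken as free RNA, and the knockout matrix lists none so small. All 9 genes were found there, above the 0.934 CPM that a count of 0 allows: Gzma at 539 CPM, Gzmb at 157 CPM, Gzmc at 44.5 CPM, Gzmk at 71.9 CPM and Gzmm at 7.47 CPM. Prf1 stood there at 65.4 CPM, Nkg7 at 622 CPM, Srgn at 1446 CPM and Ctsw at 211 CPM.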

How the results depend on the processing

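Of 1257 log2 ratios recomputed under 15 alternatives for 91 main ratios, 1033 stayed within the counting interval of the main ratio. Another 197 moved outside it without being called turned, and 27 turned, 8 of these outside the splits by sex. A UMI minimum of 500 added no barcode to any gate, so its 91 ratios could not move. A ratio was called turned only where its main interval excluded 1. Ratios whose main interval crossed 1 could change direction without being counted as turned. The log2 ratio of Gzma in CD8 T barcodes ran from 1.51 to 2.82 and was lowest with the knockout Klrg1+ share set to that of flox, an alternative chosen after seeing the data. Gzmb there ran from 0.18 to 0.76, Gzma in Klrg1+ barcodes from 1.08 to 2.09, Gzmb in Klrg1+ barcodes from 0.79 to 1.30 and Gzmk in Klrg1+ barcodes from -1.62 to -0.56. The ratios that turned follow as log2 values, and the cause was not tested. With stricter gates Srgn in Cd4 T came to 0.0050 and Gzma in NK to -0.0041. Thinning to 2000 UMIs before gating gave -0.15 for Gzma in Ly49/Itga2- NK and -0.22 for Gzmk in Klrg1+ over Klrg1- barcodes of knockout. The mean of each barcode's CPM gave 0.043 for Gzma in Ly49/Itga2+ NK and -0.034 for that Gzmk ratio. Leaving out each library's highest barcode gave 1.94 for Gzmc in CD8 T and 2.08 in its Klrg1- subset. Female barcodes alone gave -0.017, -0.061 and 0.0086 for Srgn in CD8 T, Klrg1- CD8 T and Cd4 T. They gave -1.98, 0.026 and -0.62 for Gzma in Cd163l1 T, Ly49/Itga2+ NK and Ly49/Itga2- NK, and 0.024 for Gzmc in Ly49/Itga2- NK. Male barcodes alone gave 0.23, 0.40 and 0.26 for Gzmk, Prf1 and Nkg7 in CD8 T, and 0.47, 0.17, 0.11 and -0.0089 for Gzmk, Prf1, Nkg7 and Srgn in its Klrg1- subset. They gave 0.13 and 0.23 for Nkg7 in NK and Ly49/Itga2+ NK, -0.42 for Gzmb in Ly49/Itga2- NK, and, in Ly49/Itga2+ over Ly49/Itga2- NK of flox, -0.14 for Prf1 and -0.066 for Nkg7. Members past the fold in NK numbered 2, not 1, with no UMI minimum and 0.5 UMIs added, and in Cd4 T 1, not 3, at a fold of 2. Some ratios fell under 20 UMIs when thinned, split by sex or corrected for free RNA and have no value there. No paired analysis was possible because each genotype has 1 library. Depth limits Gzmm and Gzmc most, with 176 and 16 UMIs in knockout and 150 and 33 UMIs in flox CD8 T barcodes.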

Other observations

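Barcodes outside all gates (666 in knockout and 663 in flox) also held Gzma, at 554 CPM (535 to 574) in knockout and 342 CPM (328 to 356) in flox. Of their 214 knockout and 115 flox Gzmc UMIs, 1 barcode held 193 in knockout and 1 held 64 in flox. Gzmb stood there at 88.5 CPM in knockout and 137 CPM in flox, and Gzmk at 8.49 CPM in knockout and 14.9 CPM in flox.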
